A study of Mus musculus with 6 samples.

Results

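Lmo2, Lyl1, Tal1, Hhex, Mef2c, Bcl11a, Erg, Mycn, Gfi1b and Hlf are transcription factors of blood stem and progenitor cells that are normally shut off when a thymocyte commits to the T lineage, and that are active in early forms of T-cell leukaemia. These 10 genes were followed in early thymic progenitors with and without Tcf1, at every probe set that the array's annotation assigns to 1 of these symbols alone. That gave 24 of the 45037 probe sets tested, and 10 of 18193 genes.

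Early thymic progenitors are the first cells of the thymus to start on the T-cell path. They were sorted from the thymus of C57Bl/6 mice aged 10 weeks by their surface markers (lineage-negative, CD44-positive, CD25-negative, kit-positive), and their amplified RNA was hybridised to Affymetrix arrays, 3 from Tcf1-/- and 3 from Tcf1-/+ animals. The titles name the second group Tcf1-/+, while another label calls it wild type, and the group is called Tcf1-/+ here without a way to settle which holds. The labels give no allele, and nothing says how many mice gave the cells of an array.

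As background, Lmo2 has no DNA-binding domain of its own. It bridges a basic helix-loop-helix factor, Tal1 or its close relative Lyl1, to a GATA factor through the adaptor Ldb1, while Tal1 and Lyl1 pair with E proteins on DNA. Gfi1b is a zinc-finger repressor of erythroid and megakaryocytic cells and Hhex a homeodomain repressor. Mef2c is a MADS-box factor and Bcl11a a zinc-finger repressor, both also used in B-cell and dendritic cell development. Erg is an ETS factor needed to maintain stem cells, Mycn a Myc family growth regulator, and Hlf a basic leucine zipper factor of stem cells that is fused to an E protein in rare human leukaemias. Tcf1, the factor lost here, is needed for T-lineage specification and binds DNA through a high-mobility-group box.

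Because the comparison removes a DNA-binding factor, the upstream sequences of the genes were searched for the letters of the core that Tcf1 and its relative Lef1 are known to bind. RefSeq promoters of GRCm38.p6 were found for 9 of the 10 genes, with 14 annotated starts. The 250 bases before each start were searched on both strands for CTTTGA and CTTTGT, which cannot overlap each other in the same direction. Of the 14 starts 4 held either, each of a different gene, against 27.6% of all 32851 promoter windows of the same length. The 4 sequences are shown because they are the ones that held the letters, which are in capitals (TCAAAG is CTTTGA on the other strand), and they run 5′ to 3′ on the strand of the gene.
Lyl1, chr8:84701207-84701456, plus strand: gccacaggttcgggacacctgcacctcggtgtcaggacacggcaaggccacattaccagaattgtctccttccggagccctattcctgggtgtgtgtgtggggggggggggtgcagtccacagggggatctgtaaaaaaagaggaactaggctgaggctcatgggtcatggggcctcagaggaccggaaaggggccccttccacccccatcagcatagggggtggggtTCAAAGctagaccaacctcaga
Mycn, chr12:12941837-12942086, minus strand: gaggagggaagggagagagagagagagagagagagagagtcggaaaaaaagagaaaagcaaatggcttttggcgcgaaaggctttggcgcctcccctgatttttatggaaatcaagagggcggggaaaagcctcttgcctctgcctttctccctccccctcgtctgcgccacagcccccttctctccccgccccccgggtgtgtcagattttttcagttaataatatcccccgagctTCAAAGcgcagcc
Tal1, chr4:115056176-115056425, plus strand: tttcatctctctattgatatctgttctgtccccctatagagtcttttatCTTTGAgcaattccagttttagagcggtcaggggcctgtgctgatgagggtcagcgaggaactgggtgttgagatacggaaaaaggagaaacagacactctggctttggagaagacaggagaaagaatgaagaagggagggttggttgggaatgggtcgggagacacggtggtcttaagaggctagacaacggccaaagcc
Mef2c, chr13:83573357-83573606, plus strand: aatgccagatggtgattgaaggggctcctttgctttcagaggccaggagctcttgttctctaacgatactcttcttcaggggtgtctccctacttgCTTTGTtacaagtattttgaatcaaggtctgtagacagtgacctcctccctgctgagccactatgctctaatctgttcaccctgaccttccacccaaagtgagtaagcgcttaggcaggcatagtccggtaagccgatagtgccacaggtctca
The other start of Tal1 and the other starts of Mef2c held neither. The GATA factor letters AGATAA stood before 2 starts (9.99% of all windows hold them): that of Tal1 shown above, where they overlap CTTTGA, and a start of Erg. The E-box letters CAGCTG stood before 0 starts (13% of all) and CAGATG before 1, that of Mef2c shown above (14.4% of all). These matches are letters in a window and say nothing of binding.

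The arrays differed in ways that touch the results below. The correlation of 2 arrays over the tested probe sets was 0.913 to 0.933 among 5 arrays, and 0.87 to 0.893 between Tcf1-/- replicate 2 and these 5. Signal of Y-linked genes (mean of Eif2s3y, Kdm5d and Uty) was low, at 4.01 to 5 log2 units, on Tcf1-/- replicate 1 and Tcf1-/+ replicates 1 and 3, and at 8.42 to 9.39 on the other 3. Xist, expressed from the inactive X of females, was at 12.9 to 13.4 on 5 arrays and at 5.12 on Tcf1-/+ replicate 2, so Tcf1-/- replicates 2 and 3 carried both signals. Levels are log2 probe set summaries as the authors deposited them, differences are the Tcf1-/- mean minus the Tcf1-/+ mean, and their p-values come from limma over all 45037 probe sets with Benjamini-Hochberg adjustment at 0.05. A level of 5.21 log2 units, the 95th percentile of 27 probe sets for bacterial transcripts, was taken as background. The gene named in the genotype was not analysed here, so the labels were not checked on it.

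No probe set of the 10 genes passed the adjusted threshold, and 0% of the 45037 probe sets did, while 2917 of these had an unadjusted p under 0.05. At the brightest probe set of each gene, chosen by its mean over all 6 arrays, 8 of the 10 had a lower mean in Tcf1-/- and Tal1 and Hlf a higher one. A lower mean was found for 45.7% of all 18193 genes, and for 53.8% of the 9272 genes that were as bright as the dimmest of the 10 or brighter. The median difference of the 10 was -0.47 log2 units, against 0.036 over all genes. Over their 24 probe sets the limma adjusted p lay between 0.407 and 0.988. Genotypes did not overlap, with Tcf1-/- lower, at 4 of the 24 probe sets, 3 of them of Mef2c and 1 of Bcl11a, where 5.27% of all probe sets did so. They did not overlap in the higher direction at 1, of Hlf, where 6.51% of all did. An unadjusted p under 0.05 was found for 3 with lower means (3.51% of all probe sets) and 1 with a higher mean (2.97%). In cells sorted in bulk, fewer cells that express a gene and less RNA per cell cannot be told apart.

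**Figure D1:**
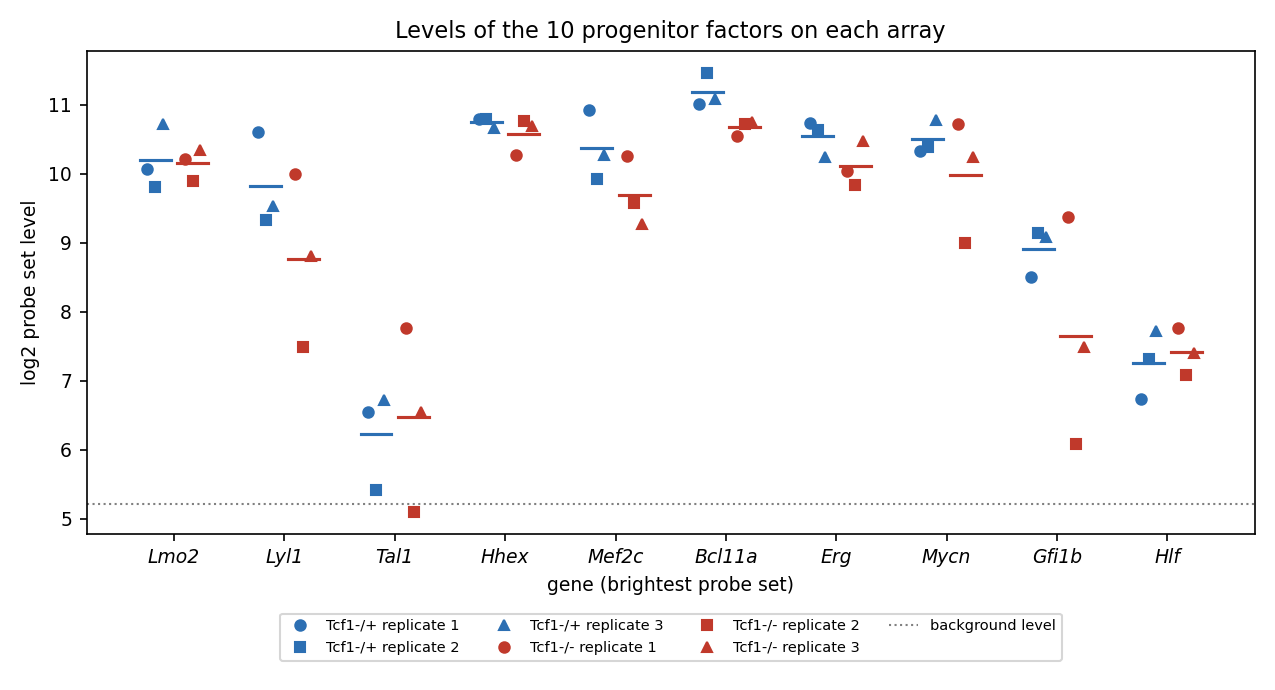
Log2 level of the brightest probe set of each of the 10 genes on each array, with Tcf1-/+ in blue and Tcf1-/- in red; short lines are group means of 3 arrays and the dotted line is the background level of 5.21. Of the 10, Bcl11a alone has no overlap between the genotypes, and Lyl1, Mycn and Gfi1b have a Tcf1-/- replicate 2 point (red square) well under the other 5 arrays.

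Mef2c had a lower Tcf1-/- mean at each of its 5 probe sets, by 0.66 to 1.18 log2 units. At its brightest probe set, 1451507_at, the Tcf1-/- arrays stood at 10.25, 9.57 and 9.27 and the Tcf1-/+ arrays at 10.93, 9.91 and 10.27, so Tcf1-/- replicate 1 fell within the control range. The difference there was -0.67 (SE 0.38, 95% interval -1.598 to 0.25, limma adjusted p = 0.854). At 1451506_at the Tcf1-/- arrays stood at 9.23, 8.97 and 9.79 and the Tcf1-/+ arrays at 10.45, 10.55 and 10.30. Every Tcf1-/- array was under every Tcf1-/+ array, and the difference was -1.11 (SE 0.27, 95% interval -1.76 to -0.45, unadjusted p = 0.00607, limma adjusted p = 0.538).

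The genotypes of Mef2c also did not overlap at 1421028_a_at, where the Tcf1-/- arrays were at 7.86, 7.10 and 6.78 and the Tcf1-/+ arrays at 8.54, 7.87 and 8.87, although the highest of the first and the lowest of the second were almost level. The difference was -1.18 (SE 0.39, limma adjusted p = 0.697). At 1421027_a_at it was -0.66 (SE 0.27), without overlap, and at 1424852_at -0.67 (SE 0.31), with overlap. When each array was left out in turn, all 30 differences of the 5 probe sets stayed below 0, between -1.49 and -0.40. Without Tcf1-/- replicate 2 alone, the 4 probe sets other than the brightest lay between -1.11 and -0.43 and the brightest at -0.61. Probe sets of a gene are not independent, and 3 of these 5 were designed on the same source sequence. Of the other Mef2 family members, Mef2d differed by -0.84 (SE 0.28, limma adjusted p = 0.698) without overlap, with the opposite sign at 1 of its 3 probe sets. Mef2a differed by 0.18 (SE 0.42), with the opposite sign at 3 of its 6 probe sets, and Mef2b by -0.16 (SE 0.22).

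Bcl11a had a lower Tcf1-/- mean at each of its 7 probe sets, but they fell into separate patterns over the arrays. At the brightest, 1426552_a_at, the Tcf1-/- arrays lay close together at 10.55, 10.71 and 10.74, and the Tcf1-/+ arrays at 11.01, 11.46 and 11.08. The genotypes did not overlap, with a difference of -0.52 (SE 0.21, 95% interval -1.03 to -0.0010, unadjusted p = 0.0497, limma adjusted p = 0.771). Leaving out Tcf1-/- replicate 2 gave -0.54.

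The other 6 probe sets of Bcl11a differed by -0.75 to -0.14, and each had its lowest Tcf1-/- value on replicate 2. At 1456632_at, for instance, the Tcf1-/- arrays stood at 11.10, 9.38 and 10.71 and the Tcf1-/+ arrays at 10.55, 11.35 and 10.98. At 1447334_at they stood at 8.39, 5.72 and 7.15 against 8.89, 7.06 and 7.57. Both of these probe sets were low on replicate 2 and within the control range on replicates 1 and 3. Without replicate 2 the differences of the 6 lay between -0.15 and 0.054. Against the Tcf1-/+ mean, Tcf1-/- replicate 3 stood at -0.80 to -0.15 at these probe sets and replicate 1 at 0.14 to 0.56. Control arrays mattered too: 1447335_x_at came to 0.11 without Tcf1-/+ replicate 1, and 1453814_at to 0.031 without Tcf1-/+ replicate 2. Bcl11b, the relative of Bcl11a that takes part in T commitment, differed by 0.62 (SE 0.32, limma adjusted p = 0.838), with single arrays of the genotypes overlapping.

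**Figure D2:**
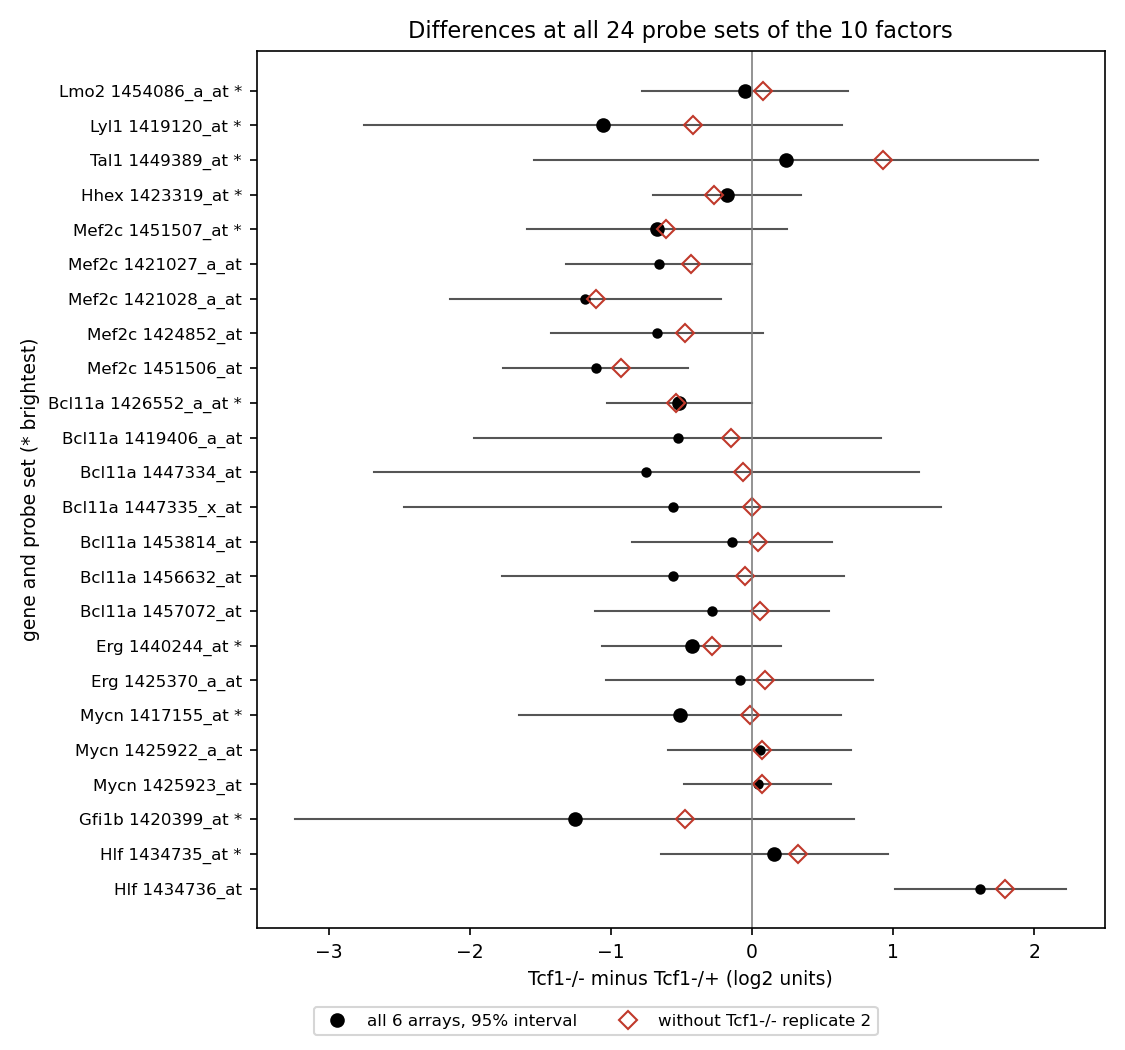
Difference between genotypes (log2 units, horizontal axis) at all 24 probe sets, with black points for all 6 arrays, lines for the 95% interval from limma and open red diamonds for the fit without Tcf1-/- replicate 2; an asterisk marks the brightest probe set of a gene. The diamonds of Mef2c stay below 0 at all 5 probe sets, while those of Bcl11a other than the brightest gather near 0.

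The basic helix-loop-helix factors and Gfi1b spanned the widest ranges over the arrays at the brightest probe sets. Gfi1b stood at 9.37, 6.08 and 7.49 in Tcf1-/- and at 8.49, 9.14 and 9.08 in Tcf1-/+. Tcf1-/- replicate 1 was the highest of the 6 arrays and replicate 2 the lowest, at -2.35 log2 units from the mean of the other Tcf1-/- arrays. The difference was -1.26 (SE 0.81, 95% interval -3.24 to 0.72, limma adjusted p = 0.881), and -0.48 without replicate 2. Without Tcf1-/- replicate 1 it was -2.12.

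Lyl1 stood at 10.00, 7.49 and 8.80 in Tcf1-/- and at 10.61, 9.33 and 9.53 in Tcf1-/+. Tcf1-/- replicates 2 and 3 were under all controls and replicate 1 within their range. The difference was -1.06 (SE 0.69, 95% interval -2.75 to 0.64, limma adjusted p = 0.883), -0.42 without replicate 2 and -1.67 without replicate 1. Tal1 stood at 7.76, 5.10 and 6.55 in Tcf1-/- and at 6.55, 5.41 and 6.73 in Tcf1-/+. Its highest and lowest arrays were both Tcf1-/-, the lowest under background, and the difference was 0.24 (SE 0.73, 95% interval -1.54 to 2.03, limma adjusted p = 0.976). It was 0.93 without replicate 2 and -0.40 without replicate 1, so its sign was set by the arrays used. On these 3 genes, Tcf1-/- replicates 1, 3 and 2 stood in this order from high to low.

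Lmo2, the bridging protein, stood at 10.21, 9.90 and 10.34 in Tcf1-/- and at 10.07, 9.80 and 10.72 in Tcf1-/+. All Tcf1-/- arrays lay inside the control range, with a difference of -0.049 (SE 0.30, 95% interval -0.78 to 0.68, limma adjusted p = 0.988), and 0.078 without Tcf1-/- replicate 2. Hhex was at 10.26, 10.76 and 10.69 in Tcf1-/- and at 10.79, 10.79 and 10.66 in Tcf1-/+. Only Tcf1-/- replicate 1 stood under all of the controls, and the 6 arrays spanned 0.53 log2 units in all, the narrowest span of the 10 genes at their brightest probe sets. Its difference was -0.18 (SE 0.21, 95% interval -0.70 to 0.34, limma adjusted p = 0.93), and -0.026 without Tcf1-/- replicate 1.

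Erg stood at 10.04, 9.83 and 10.47 in Tcf1-/- and at 10.73, 10.64 and 10.25 in Tcf1-/+ at its brightest probe set. The difference was -0.43 (SE 0.26, 95% interval -1.06 to 0.21, limma adjusted p = 0.867), with Tcf1-/- replicate 3 above the lowest control. Its other probe set, 1425370_a_at, differed by -0.089 (SE 0.39), and by -0.47 without Tcf1-/+ replicate 3, 0.11 without Tcf1-/+ replicate 1, 0.090 without Tcf1-/+ replicate 2 and 0.089 without Tcf1-/- replicate 2. Fli1, the closest ETS relative of Erg measured, differed by -0.33 (SE 0.26), also with overlap.

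Mycn stood at 10.72, 8.997 and 10.24 in Tcf1-/- and at 10.33, 10.38 and 10.78 in Tcf1-/+ at its brightest probe set, 1417155_at. Tcf1-/- replicate 2 was at -1.48 log2 units from the mean of the other Tcf1-/- arrays, and the difference of -0.51 (SE 0.47, 95% interval -1.65 to 0.63, limma adjusted p = 0.91) became -0.016 without that array. The other 2 probe sets, designed on a shared source sequence, differed by 0.055 (SE 0.27) and 0.038 (SE 0.21), and were not low on replicate 2. Myc, the relative of Mycn that acts downstream of Notch, differed by -0.88 (SE 0.41), with overlap.

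Hlf was the gene whose probe sets differed most from each other in the comparison. At its brighter probe set, 1434735_at, the Tcf1-/- arrays stood at 7.76, 7.08 and 7.40 and the Tcf1-/+ arrays at 6.73, 7.32 and 7.72, a difference of 0.16 (SE 0.33, 95% interval -0.65 to 0.96, limma adjusted p = 0.965). At the dimmer one, 1434736_at, they stood at 5.78, 5.46 and 6.18 against 4.09, 4.14 and 4.34. Every Tcf1-/- array was above background there and every Tcf1-/+ array under it, so the size of the difference of 1.62 (SE 0.25, 95% interval 1.01 to 2.23) is not well measured. Its unadjusted p was 0.00062, the lowest of the 24, and its limma adjusted p 0.407. It lay between 1.43 and 1.79 when each array was left out. Both probe sets were designed on the same source sequence.

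Tcf1-/- replicate 2 held the lowest value of the 6 arrays for 5 of the 10 genes (Lyl1, Tal1, Erg, Mycn and Gfi1b) and at 14 of the 24 probe sets. Over all genes it held the lowest value for 19.3%, over the genes as bright as the dimmest of the 10 or brighter for 29.5%, and over all probe sets for 19.7%. Without it, 7 of the 10 genes had a lower Tcf1-/- mean (49.1% of all genes) with a median of -0.28, and 15 of the 24 probe sets with a median of -0.059. Kit, a receptor used in the sort gate, was also low on that array, at 7.45 against 9.99 and 9.60 in its own group and 10.80, 10.50 and 9.83 in Tcf1-/+. The part of the array's other differences in these values was not tested.

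**Figure D3:**
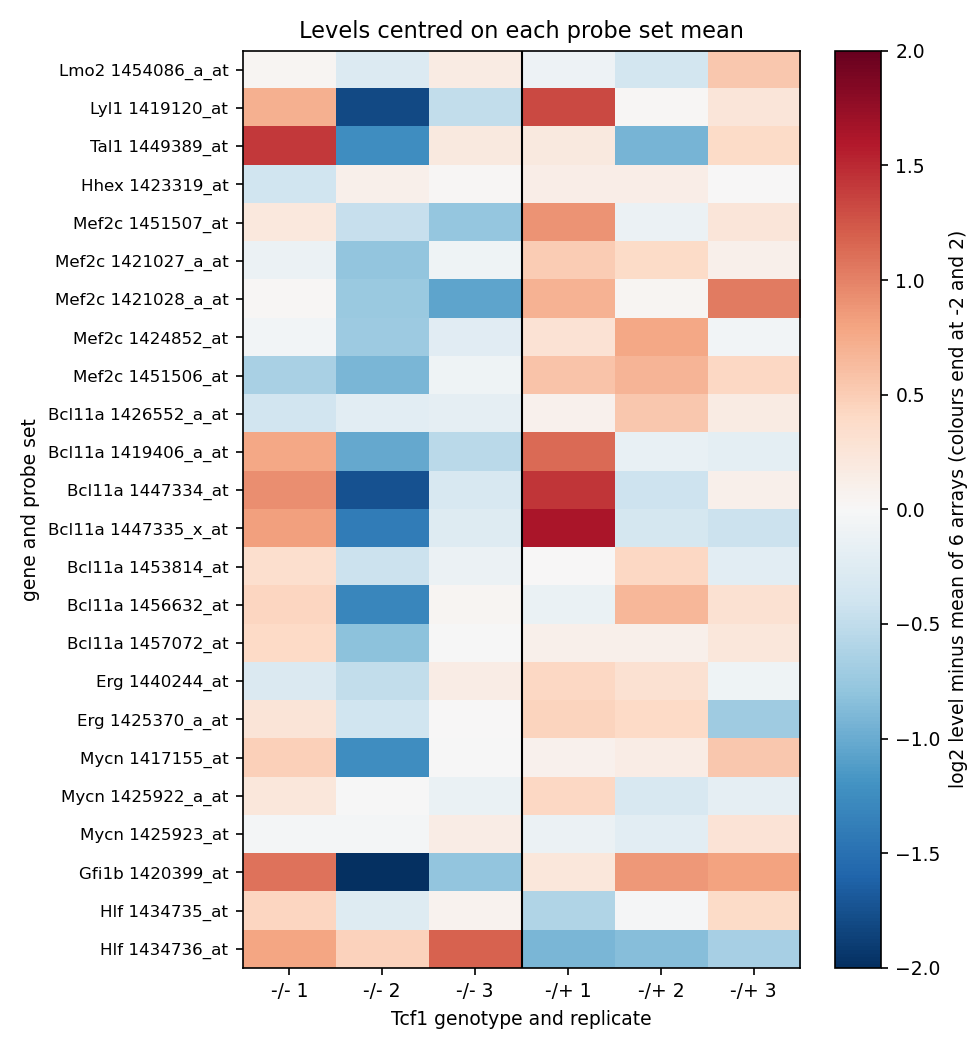
Log2 level of each of the 24 probe sets minus its mean over the 6 arrays, with arrays in columns and probe sets in rows; blue is lower and red higher, and colours end at -2 and 2. The darkest blue cells, of Gfi1b, Lyl1 and some probe sets of Bcl11a, lie in the column of Tcf1-/- replicate 2, whereas the blue cells of Mef2c spread over the Tcf1-/- columns and Hlf 1434736_at is higher in each of them.

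Partners of the Lmo2 complex showed no common direction. Their list of 23 measured genes, which also holds the Lmo2 relative Lmo4, had 9 higher and 14 lower means in Tcf1-/-, with a median of -0.16. Of the 23, 0 had an unadjusted p under 0.05, where 6.78% of all genes did. Ldb1, the adaptor, stood at 9.44, 9.78 and 10.57 in Tcf1-/- and at 11.21, 10.47 and 10.46 in Tcf1-/+, a difference of -0.78 (SE 0.38, limma adjusted p = 0.827) with overlap. Gata2, the GATA factor of stem and mast cells, stood at 9.68, 6.72 and 10.30 against 7.10, 7.27 and 8.46. Replicates 1 and 3 were above all controls and replicate 2 under them. Its difference was 1.29 (SE 0.98, limma adjusted p = 0.899), and 2.38 without replicate 2. Gata1, the erythroid GATA factor, differed by 1.29 (SE 0.64), Gata3, the T-cell one, by -0.39 (SE 0.40) and Runx1 by -0.13 (SE 0.35), all with overlap.

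Of 23 relatives of the 10 genes in their protein families, 12 had higher and 11 lower means, with a median of 0.016, and both means of 4 lay under background. Mef2d, given above, was the 1 member with an unadjusted p under 0.05. Of 22 other regulators of progenitors, 8 had higher and 14 lower means, with a median of -0.12. An unadjusted p under 0.05 was found for Egr1, an immediate early factor, at 1.75 (SE 0.61), Sox4 at -0.76 (SE 0.27) and Hoxa9, a homeobox factor of stem cells, at -0.99 (SE 0.39). Sox4 and Hoxa9 did not overlap between genotypes, Egr1 did, and the limma adjusted p of these 3 lay between 0.718 and 0.757. Ikzf2, at -0.54 (SE 0.32, opposite sign at 1 of its 3 probe sets), did not overlap either. Among all 18193 genes at their brightest probe sets, 899 were without overlap and lower in Tcf1-/-, and 1313 without overlap and higher. Spi1, which encodes the progenitor factor PU.1, differed by 0.0094 (SE 0.29).

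Surface genes of progenitor cells had lower means for 10 and higher for 3 of 13 measured, with a median of -0.77, and -0.40 without Tcf1-/- replicate 2. Flt3, a cytokine receptor, differed by -1.53 (SE 0.42) and Cd34, a surface sialomucin, by -1.25 (SE 0.36), both without overlap and with limma adjusted p of 0.598 and 0.623. Of 19 regulators of T commitment, 10 had higher and 9 lower means, with a median of 0.092. Lef1 differed by -0.91 (SE 0.19), Satb1, a chromatin organiser, by -0.73 (SE 0.23) and Ahr, the dioxin receptor, by 1.48 (SE 0.41). Each was without overlap, and the limma adjusted p of these 3 lay between 0.468 and 0.666. Hes1, at -0.50 (SE 0.27), was also without overlap.

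Of 20 other genes that are activated or mutated in T-cell leukaemia, 11 had higher and 9 lower means, with a median of 0.036, and both means of 5 lay under background. Those with both means under it were Tlx3, Tal2, Nkx2-2, Hoxa10 and Olig2. Il7r, the interleukin 7 receptor, differed by 2.00 (SE 0.40) and Igf1r, a growth factor receptor, by 1.55 (SE 0.36, opposite sign at 1 of its 5 probe sets). Both were without overlap, with limma adjusted p of 0.464 and 0.519. In the lower direction 2 genes of this list were also without overlap. They were Hoxa9, given above, at -0.99 (SE 0.39) and Hoxa5 at -0.51 (SE 0.22, opposite sign at 1 of its 2 probe sets). None of the 6 lists held a gene that passed limma's adjusted threshold, in any direction.

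The 3 genes most like each of Bcl11a, Hhex and Erg in their pattern over the 6 arrays were taken by Pearson correlation at the brightest probe sets among 12713 genes above background. They are given as a description, since with 6 arrays and so many genes high values are met for any gene. For Bcl11a they were S100pbp (r = 0.99), Nrros (0.99) and Cenpu (0.983), for Hhex H2aj (0.985), Cbl (0.984) and Rbpms (0.983), and for Erg Vill (0.984), Esr1 (0.983) and Rasa4 (0.979).

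Of the genes of the sort gate, Cd44 was between 9.60 and 10.39 on all arrays, and Kit, given above, between 7.45 and 10.80, lowest on Tcf1-/- replicate 2. Ptprc, the pan-leukocyte gene, was between 11.95 and 12.71 and Notch1 between 10.44 and 11.88. Of the other progenitor markers, Flt3 differed as given above and Dntt, the template-free polymerase of early lymphoid cells, by -1.36 (SE 0.33), without overlap. Cd27 differed by -1.15 (SE 0.54), without overlap as well. Il7r, of the same list, differed by 2.00 (SE 0.40), also without overlap. In this list 7 genes had lower and 3 higher Tcf1-/- means. The mean level of 10 measured progenitor markers was 10.30 to 10.41 in Tcf1-/- and 10.72 to 10.90 in Tcf1-/+, without overlap.

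Tal1, Lyl1, Gfi1b and Lmo2 are also expressed in erythroid, megakaryocytic and mast cells, and markers of these cells differed among the arrays. All 8 mast cell and basophil markers had higher Tcf1-/- means, and the mean level of the list was 9.25, 7.99 and 9.76 in Tcf1-/- and 7.16, 7.22 and 7.91 in Tcf1-/+, without overlap. Mcpt8, a basophil protease, differed by 3.14 (SE 0.60) and Cpa3, a mast cell carboxypeptidase, by 1.10 (SE 0.37), both without overlap. The mean level of 10 erythroid markers was 8.04, 6.43 and 8.17 in Tcf1-/- and 5.67, 5.88 and 7.998 in Tcf1-/+. Of these, the adult globin gene Hba-a1 was under background on all 6 arrays, while Car1, a carbonic anhydrase of early erythroid cells, ranged from 4.12 to 10.97. The mean level of 8 megakaryocyte markers was 6.61 to 6.81 in Tcf1-/- and 6.02 to 6.39 in Tcf1-/+, without overlap. Ppbp of that list, a platelet chemokine, was under background on all arrays. On all 3 Tcf1-/- arrays the mean of the mast cell list was above all controls. Among these arrays that mean was lowest on replicate 2, where Tal1, Gfi1b and Lyl1, with their values given above, were lowest too. The list was split there. Cpa3, Mcpt8, Ms4a2, Fcer1a, Gata2 and Hdc had their lowest Tcf1-/- value on replicate 2. Tpsb2 (7.97, 10.5 and 10.08 in Tcf1-/-) and Cma1 (9.25, 11.35 and 11.31) had their highest on it. The part of such cells in these levels was not tested.

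Bcl11a and Mef2c are also expressed in B-lineage and dendritic cells. The mean level of 11 B-lineage markers was 5.41 to 5.59 in Tcf1-/- and 5.25 to 5.52 in Tcf1-/+, with both means of 4 of them under background. Of 12 dendritic cell markers, 8 had lower Tcf1-/- means. Their mean level was 7.24, 8.29 and 7.67 in Tcf1-/- and 7.60, 8.76 and 8.38 in Tcf1-/+, with overlap, and Cd74, the invariant chain of class II molecules, differed by -1.61 (SE 0.46) without overlap. The part of dendritic cells in the lower Mef2c and Bcl11a means was not tested. Myeloid markers had higher means for 8 of 10 measured, with mean levels of 8.67, 7.92 and 9.39 in Tcf1-/- and 7.28, 7.04 and 9.45 in Tcf1-/+. The 13 NK and innate lymphoid markers had mean levels of 8.01 to 8.52 in Tcf1-/- and 6.90 to 7.36 in Tcf1-/+, without overlap. They went both ways, with higher Tcf1-/- means for 9 and lower for 4. Gzmb differed by 4.06 (SE 0.69) and Klrd1 by -1.49 (SE 0.60), both without overlap. The 11 endothelial and stromal markers were at 6.24 to 6.36 and 6.01 to 6.13, also without overlap, with both means of 4 of them under background. Taken singly, 0 of these genes were without overlap. Krt5 stood at 9.26 on Tcf1-/- replicate 3 and Krt8 at 6.84 on Tcf1-/- replicate 1, each well above its other arrays.

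**Figure D4:**
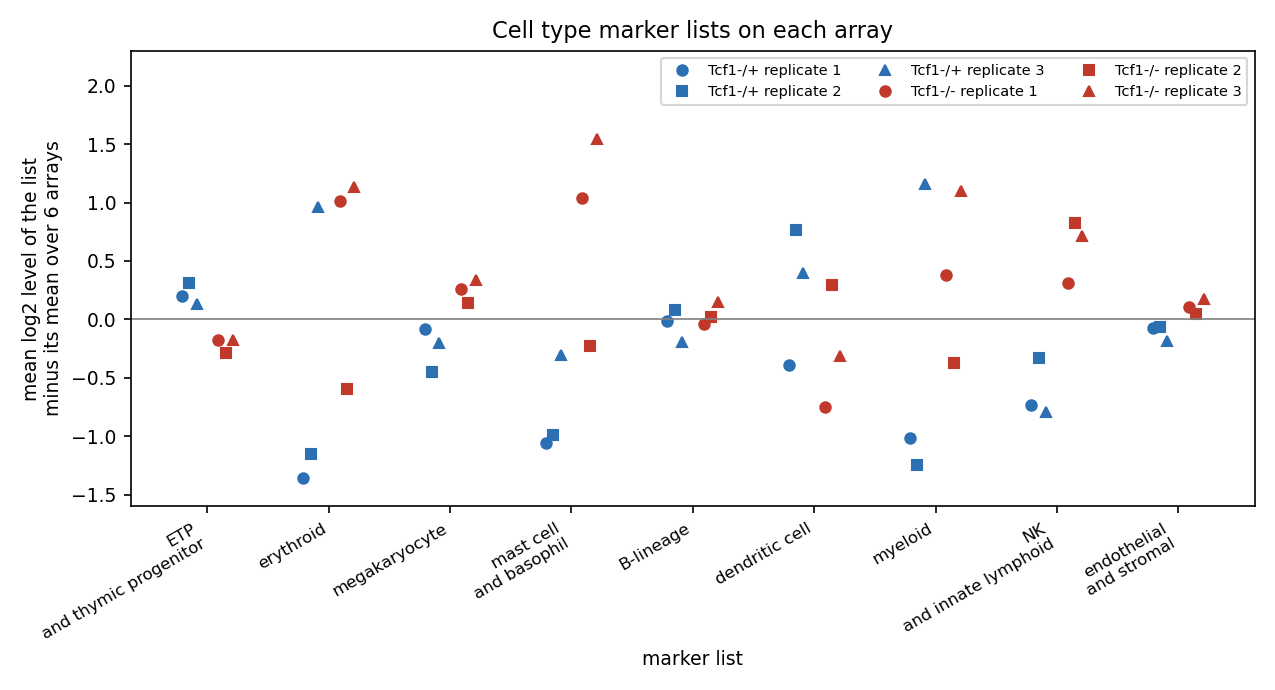
Mean log2 level of each marker list on each array minus its mean over the 6 arrays, with Tcf1-/+ in blue and Tcf1-/- in red. The mast cell list is above all controls on the 3 Tcf1-/- arrays, most on replicates 1 and 3, and the erythroid list is high on Tcf1-/- replicates 1 and 3 and on Tcf1-/+ replicate 3.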

How the data were processed

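RNA of sorted early thymic progenitors was measured on 6 Affymetrix arrays, 3 per genotype, grouped by their titles. The values deposited by the authors are log2 probe set summaries, judged from the values (2.15 to 14.8, array medians 5.8 to 5.87), and the method of summary is not stated by the labels. They were used as deposited. Of 45101 probe sets, 64 controls were left out. The platform annotation gave 34945 of the rest 1 symbol, 932 several and 9160 none here; a gene was read at its probe set of highest mean.

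The test was limma's moderated one (version 3.58.1, R 4.3.3, lmFit and eBayes, two-sided, no covariate), checked on simulated data. Exact permutation of 3 against 3 arrays cannot go below p = 0.1 and was not used. Precision is limited by the number of arrays. A p-value sets a difference against the spread between these arrays within the genotypes, which limma moderates over all tested probe sets.

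The genes and lists were chosen with earlier results of these data known. The lists are not separate, and genes such as Lmo4, Fli1, Gata2 and Runx1 stand in several of them. The rule for named genes takes all 10 genes and 9 regulators always. It takes up to 4 genes of each list with an unadjusted p under 0.05. It also takes the 3 genes most alike to each of 3 members. Other genes (Mef2a, Mef2b, Myc, Hoxa5, Ikzf2, Hes1, Kit, Mcpt8, Cpa3, Cd74, Dntt and further markers) were named after their values were seen. Same-numbered replicates correlated at 0.030, 0.045 and 0.012 in their deviations from the group means, so the numbers were not taken as pairs. Value columns not used numbered 0. Promoter sequences are RefSeq's for GRCm38.p6, read on the strand of the gene.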

Additional observations from a re-analysis of the deposited data

How the results depend on the processing

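The alternatives were the replicate block, quantile normalization, a common median, a filter on mean level, a floor at background, array weights, a trended and robust variance, the mean of all probe sets of a gene, leaving out each array, and the Y-linked level as a covariate, the last chosen after seeing the data. Under all of them limma called 0 probe sets and 0 of the 10 genes, and 7 to 10 of the 10 had a lower mean in Tcf1-/-. Each replicate block holds an array of each genotype, so its differences are those of the main fit by design, with 8 lower means and a median of -0.47. Only its p-values could differ, and it changed no call. The labels do not say whether the numbers pair the arrays. The median lay between -0.51 and -0.28 when single arrays were left out, with the end nearest 0 reached without Tcf1-/- replicate 2, and at -0.22 with the mean of all probe sets. The differences of Mef2c, Bcl11a, Lyl1, Gfi1b, Erg, Hhex and Mycn stayed below 0 under all 15 alternatives. Of these, only the mean of all probe sets does not rest on the brightest. The replicate block, the filter and the trended and robust variance cannot change a difference, and the floor left those of these genes as they were. A common median shifts all genes by the same amount. Mycn came to -0.016 without Tcf1-/- replicate 2 and Hhex to -0.026 without Tcf1-/- replicate 1. Leaving out single arrays gave Hlf a range of -0.10 to 0.39, Lmo2 of -0.25 to 0.21 and Tal1 of -0.40 to 0.93, and the Y-linked covariate turned Lmo2 to 0.082; the cause was not tested. With the Y-linked covariate 7 of the 10 had a lower mean and the median was -0.39. Signal over background limits Tal1 on Tcf1-/- replicate 2 and the dimmer Hlf probe set in Tcf1-/+, which lay under the background level.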
